A study of Homo sapiens with 17 samples.

Results

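SKN3 was compared with Cal27 as untreated cells, with 1 RNA library of each line. Both are human head and neck cancer lines, per the labels. Cal27 is a widely used line from a squamous cell carcinoma of the tongue. The members are the 11739 genes with at least 100 counts in at least 1 of both libraries, of 34496 gene rows in the table. They are described by the difference in log2 CPM (counts per 1000000 counts, scaled by TMM, with a prior count of 2), SKN3 minus Cal27. The series holds 8 further RNA libraries, which serve as a scale for these differences. They are 1 library of Cal27 labelled as an NSD1 knockout, untreated; 2 of Cal27 with DMSO; 2 of the labelled knockout with DMSO; 2 of the labelled knockout with EPZ-6438; and 1 of untreated BICR78, another head and neck cancer line. Untreated Cal27 and the 7 libraries of Cal27 cells just listed are called the 8 Cal27-derived libraries. NSD1 methylates lysine 36 of histone H3, and EPZ-6438 inhibits EZH2, the methyltransferase of lysine 27 of that histone. The labels give no NSD1 genotype for SKN3 or BICR78, say nothing of clones for the knockout, and name no culture or passage for any library.

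Squamous cell carcinomas arise from stratified epithelium. Its basal cells carry the transcription factor TP63 and the keratin pair KRT5 and KRT14, its upper layers build a cornified envelope, and single-layered epithelia use the keratins KRT7, KRT8, KRT18 and KRT19 instead. Lines of this cancer differ in how much of that programme they keep. They also differ in the tonic activity of interferon signalling, in which receptors, JAK kinases and a transcription factor complex with STAT2 and IRF9 switch on a shared set of antiviral genes.

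The SKN3 library held 17587063 counts and the Cal27 library 21738951; the further 8 held 11745655 to 21196447. With 1 library per line there is no replicate check of any difference between SKN3 and Cal27, so no p-value is given. The intervals printed below are 95% intervals of an exact Poisson kind and reflect the error of counting alone, whose upper bound lies 21.6% above a count of 100 and 6.40% above a count of 1000. The only replicates in the series are the pairs of DMSO and EPZ-6438 libraries, in which 149, 162 and 151 of the same genes (1.27% to 1.38%) differed 2-fold or more between replicates. Untreated Cal27 and the mean of both Cal27 DMSO libraries differed 2-fold or more in 7.04% of these genes, 619 higher and 207 lower in the untreated library. In 76 genes all 4 untreated libraries, of 3 lines, lay at least 2-fold above all 6 DMSO and EPZ-6438 libraries, and in 7 genes at least 2-fold below. NOTCH1, COL17A1, ISG15 and GSTP1 are among the 76, and for such genes the Cal27-derived range mixes both sets.

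Of the 11739 genes, 2121 (18.1%) were 2-fold or more higher in SKN3 and 2184 (18.6%) were 2-fold or more lower. The median difference was -0.08. The middle of the distribution was narrow, from -0.76 at the lower quartile to 0.66 at the upper, and the tails were long: 431 genes were 16-fold or more higher and 235 were 16-fold or more lower. SKN3 lay at least 2-fold above the highest of the 8 Cal27-derived libraries in 1393 genes (11.9%) and at least 2-fold below the lowest in 1283 genes (10.9%). The differences also followed the length of the gene in the genome. Among described protein-coding genes the median difference was -0.47 in the shortest of 5 groups of like size (up to 10.4 kb) and 0.37 in the longest (from 91.5 kb), while for BICR78 minus Cal27 these medians were -0.12 and 0.14. The part of gene length in the results below was not tested beyond 1 added calculation, in which the median of the gene's length group was subtracted. After it, 2142 genes were 2-fold or more higher and 1767 lower.

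**Figure D1:**
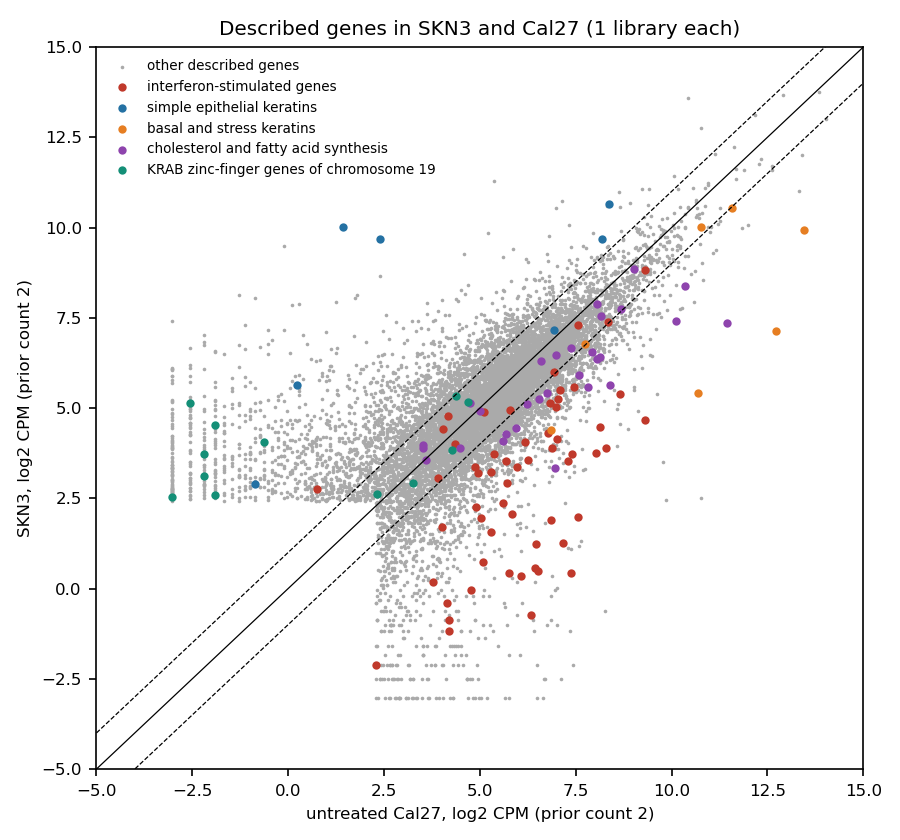
Each point is a described gene, placed by its log2 CPM in untreated Cal27 (horizontal axis) and in SKN3 (vertical axis), with 1 library each. The solid line marks equal levels and the dashed lines a 2-fold difference; coloured points are members of 5 gene lists, with interferon-stimulated genes mostly below the lines and KRT7 and KRT19 far above them.

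Many of the largest differences were in genes at or near 0 counts in 1 of the lines. A total of 209 genes had 3 counts or fewer in Cal27 and at least 100 in SKN3, and 102 genes had the reverse. Of the 200 protein-coding genes in the first group, 115 were at 3 counts or fewer in all 8 Cal27-derived libraries. LGALS7, which encodes the epithelial lectin galectin-7, had 3218 counts in SKN3 and 0 in Cal27, at least 1188-fold higher against a floor of 3 counts. Its near-identical neighbour LGALS7B can share its reads, so the split between both is uncertain. BARX1, a homeobox factor of the developing jaw and stomach, had 1314 counts in SKN3 and none in any of the 8 Cal27-derived libraries, and 56.3 CPM in BICR78. SPP1, which encodes the secreted ligand osteopontin, stood at 67.9 CPM (64.2 to 71.7) in SKN3, at 0 in Cal27 and at 30.5 CPM in BICR78. TDRD1, a protein of the germline piRNA pathway, was at 59.4 CPM in SKN3 and at 0 in all 8 Cal27-derived libraries. G0S2, a brake on fat breakdown, was at 66.3 CPM in SKN3 and at 0 in both Cal27 and BICR78, and INA, a neuronal intermediate filament, at 114 against 0.0952 CPM (log2 ratio with its counting interval 8.37 to 13.27). NR5A1, the steroidogenic transcription factor SF-1, was at 73.5 against 0.0476 CPM, and STAR, which feeds cholesterol into steroid synthesis, at 14.1 against 0.0476 CPM. Other genes of this kind were NRCAM, CHRM3, PPP1R14A, GPX3 and DDR2, all between 51.6 and 68.3 CPM in SKN3 and at 0 or 1 count in Cal27.

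In the other direction THBD, which encodes the anticoagulant receptor thrombomodulin, had 0 counts in SKN3 and 2100 in Cal27, at least 631.9-fold lower. RAC2, a small GTPase best known from blood cells, had 1 count in SKN3 and 2924 in Cal27, a log2 ratio of -16.67 to -8.89 within its counting interval, with 117 to 154 CPM over the Cal27-derived libraries and 42.4 in BICR78. The matrix ligand EDIL3 had 1 count against 2164 (log2 ratio -16.24 to -8.45), and the protease BACE2 stood at 0.369 against 129 CPM. The chemokine CCL2 was at 0 counts in SKN3, at 28.3 CPM in Cal27 and at 28.3 to 239.9 CPM over the 8 Cal27-derived libraries. MXRA5 and NEFL were also at 0 in SKN3, against 36.4 and 31.6 CPM in untreated Cal27, but the lowest Cal27-derived libraries were at 0.234 and 0 CPM, so the Cal27-derived libraries themselves spread widely in both genes. A total of 312 protein-coding genes reached 500 CPM in at least 1 of both lines. Among them the largest differences in favour of SKN3 were in COL5A2, KRT19, KRT7, FN1, NUP210, CTSV, TENM2, RDX, SGK1 and TMEM43, and the largest in favour of Cal27 were in IGFBP3, THBS1, LY6D, KRT14, KRT15, IFITM3, TMSB4X, PLAU, SCD and KRT5.

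Regulators of squamous epithelium were present in SKN3. All 16 squamous markers on the list were described. Of these, 3 were 2-fold or more higher and 5 lower, against 18.1% and 18.6% of all described genes. Their median difference was -0.39, and against the Cal27 DMSO libraries it was 0.57. TP63 stood at 577 against 708 CPM, within the Cal27-derived range of 257 to 708. The adhesion receptor CDH1 was at 552 against 293 CPM, EPCAM at 435 against 184 CPM, and SOX2, a lineage factor of squamous cancers, was 4.41-fold higher at 97.1 against 22 CPM. VIM, the mesenchymal intermediate filament, had only 14 and 29 counts and was below the minimum in both lines. Markers of other cell types were low or absent. No marker of melanocytes reached 100 counts in either line, and 4 of 9 fibroblast markers, 3 of 11 immune markers and 1 of 6 endothelial markers did. PTPRC, CD3E, CDH5 and PECAM1 were below the minimum. Of the 4 described fibroblast markers 2 were 2-fold or more higher and 1 lower, with FAP at 129 against 3 counts. The 1 described endothelial marker, VWF, was higher (3.03 on the log2 scale), above all Cal27-derived libraries, and the 3 immune markers were lower. Summed over each list, fibroblast markers came to 53.3 CPM in SKN3 and 26.7 in Cal27, and immune markers to 12.5 and 73.5. The sum of endothelial markers was higher in SKN3, as was that of neuroendocrine and neural markers (47.3 against 17.6 CPM). Both sums lay within the range of the Cal27-derived libraries.

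The keratins of basal cells were mostly lower in SKN3 than in untreated Cal27 and those of simple epithelia higher. RNA of a whole culture does not tell fewer cells with a transcript from less of it per cell. Of 7 described basal and stress keratins, 5 were 2-fold or more lower and none higher, with a median of -2.46. Of 7 simple epithelial keratins, 6 were 2-fold or more higher and none lower, with a median of 3.75. Over all described genes 18.6% were lower and 18.1% higher. KRT19 stood at 1031 CPM (1016 to 1045) in SKN3 and 2.57 (1.93 to 3.35) in Cal27, 401-fold apart. The 8 Cal27-derived libraries ran from 0.156 to 2.57 CPM, so SKN3 lay apart from all of them, and BICR78 was at 1689 CPM. KRT7 was at 825 against 5.14 CPM, with 5.14 to 44.9 over the Cal27-derived libraries and 8.32 in BICR78, so its high level separated SKN3 from both other lines. The partners KRT8 and KRT18 were 4.87-fold and 2.86-fold higher in SKN3, at 1596 and 827 CPM. KRT5 stood at 971 against 11306 CPM, and KRT14 at 139 against 6783 CPM, 48.8-fold lower.

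The size of the KRT14 and KRT5 differences depends on which Cal27-derived library is taken. Untreated Cal27 had the highest KRT14, KRT5, KRT15 and KRT6A of the 8 Cal27-derived libraries. Both DMSO libraries of Cal27 had 1330.5 and 1316 CPM of KRT14, and the untreated labelled knockout had 45.6 CPM, below SKN3. KRT5 was lowest in the EPZ-6438 libraries, at 872 CPM, also below SKN3. None of the 5 lower keratins lay 2-fold below all 8 libraries. KRT6A, a keratin of stressed epithelium, was 2.03-fold lower in SKN3 than in untreated Cal27 (1489.9 against 3024 CPM) but above both DMSO libraries (766 and 759.7 CPM).

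**Figure D2:**
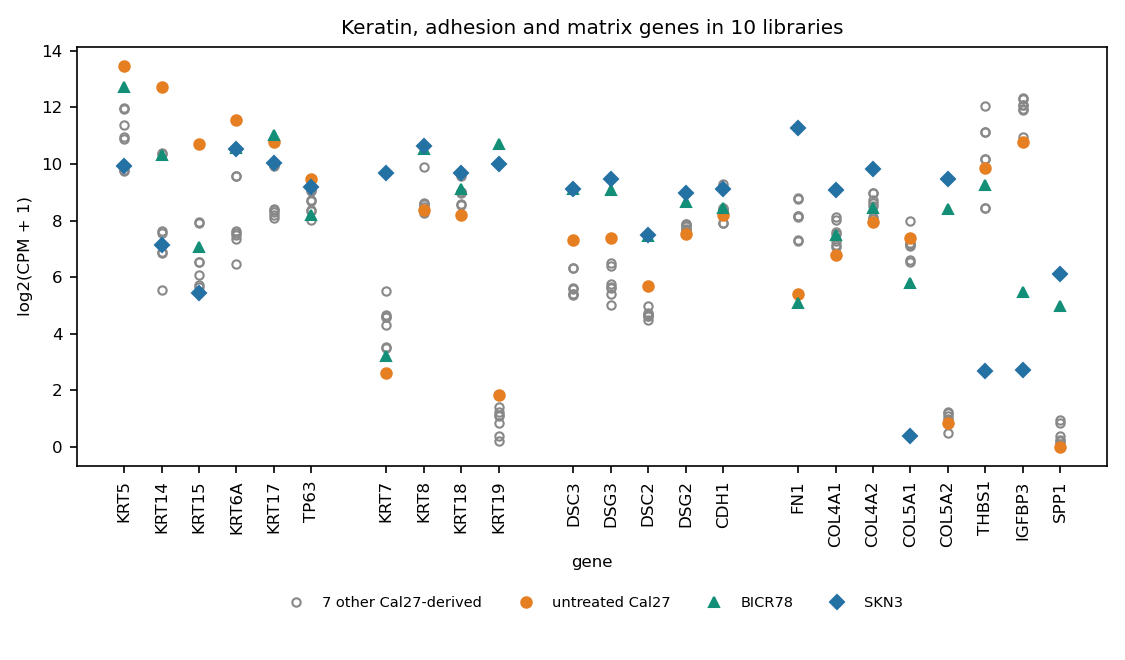
Level of 23 genes (log2 of CPM plus 1, vertical axis) in 10 libraries, with the genes along the horizontal axis. Blue diamonds are SKN3, green triangles BICR78, orange circles untreated Cal27 and open circles the 7 other Cal27-derived libraries; SKN3 stands above all Cal27-derived libraries in KRT7, KRT19, FN1 and COL5A2 and below them in COL5A1, THBS1 and IGFBP3.

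Cornified envelope genes were split. Of 20 described, 10 were 2-fold or more lower and 5 higher (median -0.97), while against the Cal27 DMSO libraries the median was 0.74. A run of 12 neighbours on chromosome 1, from IVL to S100A7, was lower throughout. SPRR1B, a crosslinked envelope protein, stood at 0.843 against 123 CPM, and IVL, the envelope scaffold involucrin, had 0 counts against 215. Untreated Cal27 had the highest level of both among the Cal27-derived libraries; both DMSO libraries of Cal27 had 7.64 and 7.9 CPM of SPRR1B and 0.954 and 0.298 of IVL. The calprotectin genes S100A8 and S100A9, which encode secreted antimicrobial proteins, were low beside every Cal27-derived library: S100A9 stood at 0.527 against 309 CPM, with 43.7 to 2334 CPM over the Cal27-derived libraries, and S100A8 had 2 against 1890 counts (log2 ratio -12.78 to -7.88). Of 18 described S100 and defence genes, 12 were 2-fold or more lower, 8 of them below all 8 Cal27-derived libraries, and 1, S100P, was higher. Over all described genes 10.9% lay 2-fold or more below all 8. Adhesion genes were on both sides. Of 25 desmosome and junction genes, 8 were 2-fold or more higher and 4 lower, against 18.1% and 18.6% of all described genes. The desmosomal cadherins DSC3, DSG3 and DSC2 stood at 553, 700.4 and 179 CPM in SKN3 and at 159, 166 and 49.9 in Cal27, above every Cal27-derived library, and at 556, 539.8 and 176 in BICR78. DSC1, a cadherin of upper layers, was at 104 against 0.476 CPM. GJB2, a gap junction channel, was at 30.2 against 216 CPM.

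Interferon-stimulated genes were mostly lower in SKN3. Of 60 on the list 58 were described. Among these, 47 were 2-fold or more lower in SKN3 and 1, GBP5, was higher, against 18.6% and 18.1% of all described genes. Their median was -2.94, against -0.08 over all described genes. The summed level of the list was 1521 CPM in SKN3 and 6592 in Cal27; over the 8 Cal27-derived libraries it ran from 4048 to 18577, and in BICR78 it was 3332. In 42 of the genes SKN3 lay 2-fold or more below all 8 Cal27-derived libraries, against 10.9% of all described genes. After subtracting the median of the length group, 48 were 2-fold or more lower. For BICR78 minus Cal27, which shares the Cal27 library, the median of the same genes was -1.22.

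The promoters of these genes are shown because the genes were low together and the sequence that the complex with STAT2 and IRF9 binds is known. The core (GAAA, any 2 bases, GAAA) was searched on both strands of the 250 bases before each RefSeq gene start (build GRCh38.p14). It was found in 24 of the 45 described members with an entry (53.3%) and in 3.07% of all 27305 promoters in the table. Of the 37 lower members with an entry, 19 held the core, so it did not set the lower members apart. MX1 and OAS1 were lower without it, whereas DDX60L (0.61) and EPSTI1 (0.38) held it and were not lower. The listed stretches are from the 6 lower members with the core and the largest differences. They are written 5′ to 3′ along the gene with each match in capitals, so that TTTC runs are matches on the opposite strand. They lie at chr10:89327841-89327909 (plus strand), chr1:78649746-78649788 (plus), chr1:27672251-27672310 (minus), chr10:89392495-89392554 (plus), chr11:320861-320920 (minus) and chr1:78620350-78620409 (plus).
IFIT3: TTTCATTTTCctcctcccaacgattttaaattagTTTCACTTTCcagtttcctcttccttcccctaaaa
IFI44: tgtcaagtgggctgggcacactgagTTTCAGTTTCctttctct
IFI6: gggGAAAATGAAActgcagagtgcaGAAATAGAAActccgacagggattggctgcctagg
IFIT1: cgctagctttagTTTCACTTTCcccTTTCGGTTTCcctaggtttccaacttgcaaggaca
IFITM3: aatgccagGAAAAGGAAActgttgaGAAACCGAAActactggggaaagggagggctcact
IFI44L: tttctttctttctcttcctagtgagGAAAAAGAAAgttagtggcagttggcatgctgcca
IFIT3, IFI6, IFIT1 and IFITM3 show more than 1 match in the printed stretch. A match is a description of the letters and not a measured binding site.

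Effectors of several kinds were among the lower genes. OASL, an OAS-like antiviral protein, stood at 0.474 CPM (0.217 to 0.901) in SKN3 and 81.2 (77.4 to 85.1) in Cal27. IFIT3, which binds foreign RNA with its relatives, was at 1.21 against 166 CPM, with 145 to 769 CPM over the Cal27-derived libraries and 92.4 in BICR78. SKN3 lay below every other library for both genes. IFIT1 was at 2.21 against 88.3 CPM, and OAS1 and OAS2, which make the messenger that activates RNase L, were at 1.16 against 66.9 CPM and 2.27 against 143 CPM. The GTPase MX1, which blocks viral replication, was 49.4-fold lower (3.8 against 188 CPM). IFITM3, which blocks viral entry and was the most abundant of the genes just named in Cal27, was at 25.2 against 637 CPM and at 338 CPM in BICR78. The ubiquitin-like modifier ISG15 was at 17.4 CPM in SKN3, 130.0 in untreated Cal27 and 84.1 in BICR78; all 6 DMSO and EPZ-6438 libraries were at 2.13 CPM or less, so no statement against all 8 libraries is made for it. The T-cell chemokine CXCL10 had 2 and 100 counts. GBP5, a guanylate-binding protein of inflammasome control, was the exception at 6.69 against 1.57 CPM, within the Cal27-derived range of 1.57 to 14.

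**Figure D3:**
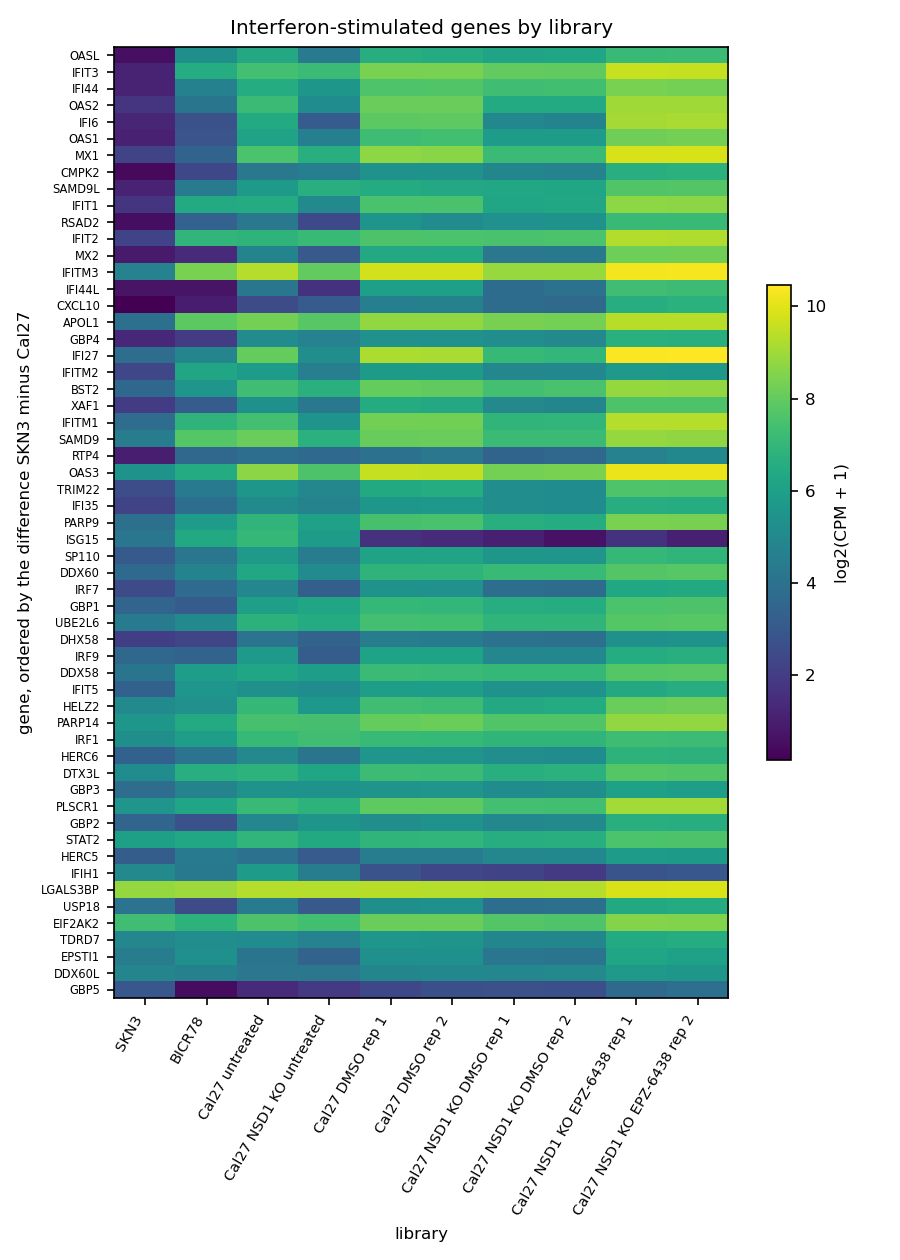
Level of 57 of the 58 described interferon-stimulated genes (rows, ordered by the difference SKN3 minus Cal27) in 10 libraries (columns), as log2 of CPM plus 1 on the colour scale. The SKN3 column is the darkest for most of the upper rows, the EPZ-6438 columns are the brightest for most genes (not ISG15), and BICR78 lies between SKN3 and untreated Cal27 for many genes.

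Receptors and kinases upstream were expressed in SKN3. Of 21 described receptors, kinases, transducers and sensors, 3 were 2-fold or more lower and 1 higher, with a median of -0.51. Over all described genes 18.6% were lower and 18.1% higher. STAT2 stood at 64 against 121 CPM, inside 2-fold of Cal27, and the kinase JAK1 was 2.64-fold higher (312 against 118 CPM). The receptor chains IFNGR1 and IFNAR1 were at 88.8 against 90.9 CPM and 32.1 against 58.1 CPM. IRF9, the DNA-binding partner of STAT2, was 4.51-fold lower, at 11.4 against 51.3 CPM, but the labelled knockout was lower still at 8.03 CPM. TLR3, a sensor of double-stranded RNA, had 4 counts against 210. IRF1, the transcription factor linking interferon to antigen presentation, was at 38 against 132 CPM, below all Cal27-derived libraries (117 to 157).

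Antigen presentation by MHC class I was lower in part. Of 21 described genes, 11 were 2-fold or more lower and none higher (median -1.02); after subtracting the median of the length group 8 were 2-fold or more lower. HLA-C stood at 87.8 against 696 CPM, 7.92-fold lower, and HLA-F at 1.95 against 41.5 CPM, whereas HLA-B was at 134 against 192 CPM, inside 2-fold of Cal27. B2M, the shared light chain, was at 341 against 867 CPM, below all 8 Cal27-derived libraries (867 to 2642). The immunoproteasome subunits PSMB9 and PSMB8 were 8.83-fold and 5.9-fold lower, and the peptide transporter genes TAP1 and TAP2 2.03-fold and 2.26-fold lower. Of 10 described MHC class II genes 3 were 2-fold or more higher and 2 lower (18.1% and 18.6% over all described genes), with a median of 0.20. None was above all Cal27-derived libraries, and against the Cal27 DMSO libraries the median was -1.28 and HLA-DRB1 and HLA-DQB1, which are among the 3 higher genes, were lower in SKN3. Among checkpoint ligands and regulators, 8 of 15 were 2-fold or more lower and 2 higher. CD274, which encodes PD-L1, was at 1.32 against 8.33 CPM, the NKG2D ligand ULBP2 at 0.422 against 18.8 CPM, and VTCN1, which encodes the inhibitory ligand B7-H4, at 65 against 2.14 CPM, above all Cal27-derived libraries. The mucosal chemokine CXCL14 was 48.8-fold higher (99.9 against 2.05 CPM), and CCL20, a chemokine for dendritic and T cells, had 1 count against 151 (log2 ratio -12.40 to -4.59).

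Matrix genes differed in both directions. FN1, which encodes fibronectin, stood at 2499.6 CPM (2477 to 2522) in SKN3 and 41 (38.3 to 43.8) in Cal27, 61-fold apart; the Cal27-derived libraries ran from 41 to 444 CPM and BICR78 was at 33.2. Of 16 described collagen genes 8 were 2-fold or more higher and 2 lower, against 18.1% and 18.6% of all described genes. The pair of type V chains went opposite ways. COL5A2 was at 716 against 0.809 CPM and COL5A1 at 0.316 against 164 CPM. BICR78 carried both, at 336 and 53.7 CPM. The basement membrane chains COL4A1 and COL4A2 were 4.93-fold and 3.69-fold higher, and LAMA1, a laminin chain of early basement membranes, was at 262 against 0.428 CPM. SLIT2, a secreted guidance ligand, was at 129 against 1.19 CPM.

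Secreted regulators that Cal27 made in quantity were lower in SKN3. IGFBP3, which binds insulin-like growth factors, stood at 5.59 CPM (4.57 to 6.76) in SKN3, 1748 (1730.2 to 1766) in Cal27, 1748 to 5111 over the Cal27-derived libraries and 43.4 in BICR78. By contrast, the growth factor gene IGF2 had 1811 counts in SKN3 and 3 in Cal27 (log2 ratio 7.84 to 11.66). THBS1, the matricellular protein thrombospondin 1, was 174-fold lower (5.38 against 933 CPM), below all Cal27-derived libraries. Of 14 described matrix metalloproteinases and inhibitors 9 were 2-fold or more lower and 2 higher, and 5 lay below all 8 Cal27-derived libraries. MMP1, the interstitial collagenase, was at 0.896 against 129 CPM, but at 8.81 and 11 CPM in the DMSO libraries and at 509 in BICR78. PLAU, which encodes urokinase, was at 30.1 against 561 CPM and its receptor gene PLAUR at 6.69 against 23 CPM. In all, 10 of 18 described genes of plasminogen activation and clade B serpins were 2-fold or more lower, 7 of them below all Cal27-derived libraries. YAP and TEAD targets did not share one direction: 8 of 26 were 2-fold or more higher and 4 lower. The shares over all described genes were 18.1% and 18.6%, and 10.9% lay 2-fold or more below all 8 Cal27-derived libraries.

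**Figure D4:**
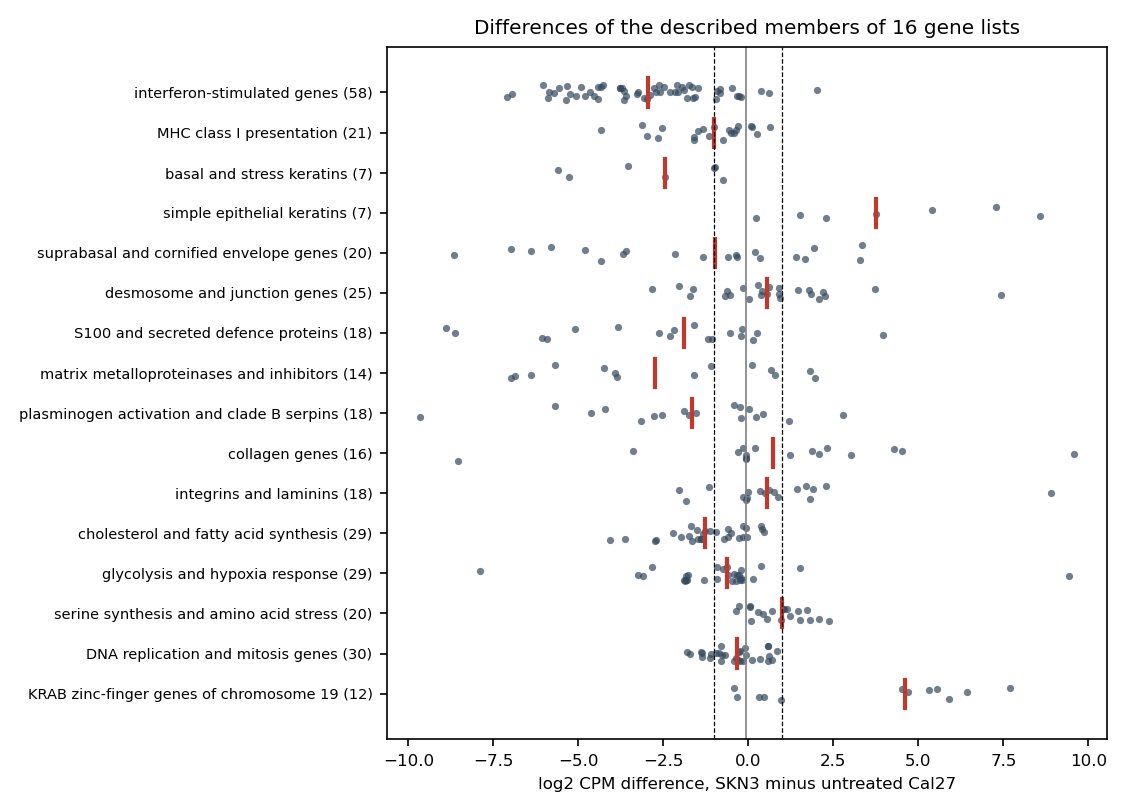
Difference in log2 CPM, SKN3 minus untreated Cal27 (horizontal axis), for each described member of 16 gene lists (rows, number of members in brackets). Each point is a gene, red bars are list medians, the grey line is the median of all described genes and dashed lines mark 2-fold; interferon-stimulated genes spread to the left and simple epithelial keratins to the right.

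Metabolic genes separated into lower lipid synthesis and higher amino acid stress genes. Of 29 described genes of cholesterol and fatty acid synthesis, 16 were 2-fold or more lower and none higher (median -1.28). Of the 29, 8 lay below all Cal27-derived libraries. Over all described genes 18.6% were lower, 18.1% higher and 10.9% below all Cal27-derived libraries. SCD, the desaturase that makes monounsaturated fatty acids, stood at 165 CPM (159 to 171) in SKN3, 2783 (2760.2 to 2805) in Cal27 and 3452 in BICR78. INSIG1, a sterol sensor, was 12.6-fold lower and the transcription factor gene SREBF1 6.52-fold lower. SQLE, which oxidises squalene, differed little, at 79.3 against 95.8 CPM. Of 29 described genes of glycolysis and the hypoxia response 11 were 2-fold or more lower and 2 higher. ENO1 and LDHA, of the lower part of glycolysis, were 3.61-fold and 3.56-fold lower (1005 against 3624 CPM and 443 against 1576 CPM). EGLN3, a prolyl hydroxylase induced by hypoxia, had 0 counts in SKN3 and 617 in Cal27. The glucose transporters were divided: SLC2A3, a high-affinity transporter, was at 281 against 0.286 CPM, and SLC2A1, the common transporter of epithelial cells, at 279.6 against 467 CPM.

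Of 20 genes of serine synthesis and amino acid stress 10 were 2-fold or more higher and none lower, with a median of 1.0. Of the 20, 5 lay above all Cal27-derived libraries. Over all described genes 18.1% were higher, 18.6% lower and 11.9% above all Cal27-derived libraries. TRIB3, an inhibitor induced by the stress factor ATF4, was 5.21-fold higher (380.0 against 72.9 CPM), CHAC1, which degrades glutathione, 4.25-fold (35 against 8.23 CPM), and DDIT3, the stress factor CHOP, 3.34-fold (52.6 against 15.8 CPM). INHBE, which encodes the activin E subunit and is also induced by ATF4, was at 130.5 against 0.0952 CPM with 1.3 in BICR78. ATF4 RNA itself was nearly equal at 335 against 321 CPM; this factor is controlled chiefly at translation. The element that ATF4 binds with its partners, of core TGATGNAA, was found on either strand of the 250 upstream bases in 3 of 17 members with an entry (17.6%) and in 3.19% of all promoters. Those 3 were among the 10 higher genes, but TRIB3 (2.38), SESN2 (1.82) and DDIT3 (1.73) were higher without the core. A match here too is a description of the letters and not a measured binding site. The stretches of the 3 genes with the core, at chr15:40953237-40953294 (plus strand), chr1:212565191-212565248 (plus) and chr7:97872444-97872501 (minus), are shown with the match in capitals.
CHAC1: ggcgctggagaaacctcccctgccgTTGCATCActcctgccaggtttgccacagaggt
ATF3: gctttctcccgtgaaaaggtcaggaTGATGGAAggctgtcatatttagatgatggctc
ASNS: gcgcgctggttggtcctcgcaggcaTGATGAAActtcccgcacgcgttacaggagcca
For the sterol genes a sterol regulatory core, TCACNCCAC, was present in 1 of 22 members with an entry (4.55%) and in 0.875% of all promoters, and in none of the 12 lower members with an entry.

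Growth factor and developmental pathways had members on both sides. The shares over all described genes, 18.1% higher and 18.6% lower, stand beside each of these small lists, from which nothing is read as a whole. Of 14 described genes of the EGF family, 4 were 2-fold or more higher and 3 lower. EGFR was close in both lines (1538 against 1856 CPM). Its ligands AREG and EREG were 10.5-fold and 4.97-fold higher (192 against 18.3 CPM and 100.4 against 20.2 CPM), and the receptor ERBB4 had 281 counts in SKN3 and 0 in Cal27. NRG1, a ligand of ERBB3 and ERBB4, was 18.7-fold lower (9.33 against 174 CPM). Of 22 TGF-beta and BMP genes 9 were 2-fold or more higher and 6 lower. The common mediator SMAD4 was 4.7-fold higher (52.3 against 11.1 CPM; BICR78 58.9 CPM). The target genes ID2 and SMAD7 were 13-fold and 8.71-fold higher, and the ligand subunit INHBA, of activin A, was at 0.633 against 68.1 CPM. Of 25 WNT genes 10 were 2-fold or more higher and 8 lower. The transcription factor LEF1 had 414 counts against 1, and LGR5, the receptor for R-spondins, 112 against 0. The ligands WNT5B and WNT5A went opposite ways, with 358 against 1 counts and 0 against 129. The Notch target HEY1 was 18.1-fold higher (67.2 against 3.71 CPM). NOTCH1 was at 56.5 against 269 CPM, but both Cal27 DMSO libraries were at 1.54 and 0.969 CPM, so the direction of its difference depends on the Cal27 library.

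Genes of the aryl hydrocarbon receptor were described after their values were seen. The receptor gene and most of its targets named here were not chosen by the rule for named genes. AHR, the ligand-activated receptor, was 3.4-fold higher (1628 against 479 CPM), above all Cal27-derived libraries. Its target CYP1A1 stood at 407 CPM (398 to 416) in SKN3, 5.14 (4.22 to 6.2) in Cal27 and 42.1 in BICR78, and the repressor gene AHRR was 12-fold higher. The further targets CYP1B1 and TIPARP were lower, 5.7-fold and 2.13-fold. Vitamin-degrading enzymes were also higher: CYP24A1, which clears vitamin D, was at 109.6 against 1.28 CPM, and CYP26A1, which clears retinoic acid, had 989 counts against 1 (log2 ratio 7.62 to 15.40).

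CDKN2A, which encodes the cell cycle inhibitor p16 and, from another reading frame, ARF, had 0 counts in SKN3 and 1137 in Cal27, at least 342.1-fold lower, and 0.156 CPM in BICR78. Its neighbour CDKN2B, which encodes the inhibitor p15, had 2 counts against 640 (log2 ratio -11.22 to -6.32). MTAP, the next gene along on the short arm of chromosome 9, was nearly equal at 100.4 against 115 CPM, whereas BICR78 had 0.832 CPM of it. RNA of CDKN2A was thus at or near 0 in SKN3 and BICR78 and present in all 8 Cal27-derived libraries (31.5 to 56.6 CPM), while MTAP RNA was present in SKN3 and near 0 in BICR78. The inhibitors CDKN1A and CDKN1B were 2.96-fold and 2.87-fold higher. CCND1 was at 188 against 315 CPM and RB1 at 94 against 117 CPM. Of 30 replication and mitosis genes 7 were 2-fold or more lower and none higher (median -0.34), against 18.6% and 18.1% of all described genes. After subtracting the median of the length group, 6 were 2-fold or more lower and 2 higher. All 6 MCM helicase genes were below Cal27, from MCM7 (-1.82) to MCM6 (-0.77). Mitotic genes were on both sides: CCNA2, TPX2 and CDK1 stood at 0.85, 0.68 and 0.59, but the mitotic kinase gene AURKA was among the 7 lower genes. In the list as a whole, 22 of 30 genes were below 0 and 8 above. MCM4 was at 155 against 395 CPM, but at 56.7 and 49.4 CPM in the Cal27 DMSO libraries, below SKN3.

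Few histone methylation enzymes were 2-fold or more apart. NSD1 stood at 78.1 CPM (74.2 to 82.2) in SKN3, 149 (144 to 155) in Cal27, 113 to 203 over the Cal27-derived libraries and 0.468 in BICR78; SKN3 was below all 8, by less than 2-fold. The untreated labelled knockout had 203 CPM, above Cal27, so gene-level NSD1 RNA does not check that label. Of 11 described H3K36 enzymes 2 were 2-fold or more higher, NSD3 (169 against 64.8 CPM) and SETMAR, which is near the share of 18.1% over all described genes, and none was lower. NSD2 and SETD2, which also methylate lysine 36, were at 204 against 136 CPM and 83 against 56.7 CPM. Of 14 PRC2 subunits and H3K27 demethylases, KDM6A, a demethylase, was 2.22-fold lower (20.2 against 45 CPM), and the other 13 were within 2-fold. EZH2, EED and SUZ12 were at -0.49, -0.52 and 0.40 on the log2 scale. Among DNA methylation genes, the de novo enzymes DNMT3A and DNMT3B and the demethylase TET1 were 5.78-fold, 2.77-fold and 5.42-fold higher, above all Cal27-derived libraries, and BICR78 was at 20.9, 28.9 and 31.7 CPM of the same genes. DNMT1, which maintains methylation, was at 194 against 296 CPM.

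Zinc-finger genes of chromosome 19 gave the highest running median along the genome. Many encode proteins with a KRAB domain, which bind DNA and recruit silencing to transposable elements. This group (all protein-coding genes of that chromosome with ZNF or ZFP symbols) was chosen after values were seen. Of 153 described, 69 (45.1%) were 2-fold or more higher in SKN3 and 4 lower, against 14.0% higher among 207 such genes of other chromosomes and 18.6% among 641 other genes of chromosome 19. Their summed level was 2878 CPM in SKN3, 1636 in Cal27, 1575 to 1771 over the 8 Cal27-derived libraries and 2023 in BICR78. Many were at or near 0 in Cal27: 34 were 16-fold or more higher and 22 had 3 counts or fewer in Cal27. ZNF607 had 669 counts in SKN3 and 1 in Cal27, with at most 0.0476 CPM over the Cal27-derived libraries and 9.93 in BICR78. ZNF91, which is known to bind SVA elements, had 434 against 3 counts (log2 ratio 5.77 to 9.61), and ZNF420 107 against 0.

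A total of 10 of these genes were at 3 counts or fewer in all 8 Cal27-derived libraries, and 9 of them had a promoter entry. Their 250 upstream bases held 12 to 39 CpG dinucleotides (median 22), against 4 to 32 (median 17) in 72 zinc-finger genes of the chromosome that differed less than 2-fold, so the ranges overlap widely, and a median of 11 over all promoters. The last 100 bases before the start of the 3 with the largest difference are shown with CpG in capitals, at chr19:37719189-37719288, chr19:58002821-58002920 and chr19:57947707-57947806, all on the minus strand.
ZNF607: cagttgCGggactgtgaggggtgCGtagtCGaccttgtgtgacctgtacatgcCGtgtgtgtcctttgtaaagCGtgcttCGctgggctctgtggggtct
ZNF606: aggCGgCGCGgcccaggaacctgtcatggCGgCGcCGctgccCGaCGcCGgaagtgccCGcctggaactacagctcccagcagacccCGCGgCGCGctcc
ZNF256: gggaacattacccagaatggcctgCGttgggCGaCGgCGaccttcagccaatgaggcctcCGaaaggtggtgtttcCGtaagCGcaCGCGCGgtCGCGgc
Methylation of these bases was not measured in the libraries used here.

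The 4 described genes of the cancer-testis list, all X-linked, were detected in Cal27 and not, or barely, in SKN3. TDRD1, the germline gene named above and not on that list, was instead detected in SKN3 and at 0 in Cal27. The X-linked genes MAGEA4, MAGEA3 and MAGEA6, normally limited to germ cells, had 2, 1 and 0 counts in SKN3 and 173, 102 and 89.3 CPM in Cal27, with 0.26, 0.208 and 0.156 CPM in BICR78. For MAGEA4 the log2 ratio lay within -13.73 to -8.83. They were high in all 8 Cal27-derived libraries, at 173 CPM or more for MAGEA4. MAGEA3 and MAGEA6 are near-identical, so their split is uncertain. The fourth described member of the list, CSAG3, had 0 against 173 counts. The other 31 members of that list were below the minimum in both lines.

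Neighbouring genes were also examined, after values were seen. Runs of at least 6 consecutive described protein-coding genes, all 2-fold or more apart in the same direction, were counted by RefSeq position (GRCh38.p14): 21 runs of higher genes held 181 genes and 23 runs of lower genes held 170. The longest run had 14 genes on the short arm of chromosome 3 (12557087 to 14201122), from MKRN2 to LSM3. It holds NUP210, a nuclear pore protein (614 against 23.8 CPM), TMEM43 (557 against 73.1 CPM) and XPC, a DNA damage sensor (172 against 14.1 CPM). A run of 11 more genes, CCDC174 to ANKRD28, and 1 of 7, OXNAD1 to UBE2E2, followed. The median differences of the 3 runs were 2.86, 2.05 and 1.37; in BICR78 minus Cal27 they were 0.55, 0.26 and 0.15.

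Other higher runs covered 7 genes from DSC3 to B4GALT6 on chromosome 18, 10 genes from RDX to DIXDC1 on chromosome 11, 8 genes from LRP6 to APOLD1 with CDKN1B on chromosome 12, and 11 genes from RAB11FIP1 to TACC1 with NSD3 and FGFR1 on chromosome 8. Chromosome 19 held 8 of the 21 higher runs and 70 of their 181 genes. On that chromosome a run of 12 genes, EIF3K to SARS2, had a median of 1.80 and included LGALS7; its median in BICR78 minus Cal27 was -0.34. Chromosome 11 held 9 of the 23 lower runs and 68 of their 170 genes. They included 8 genes from CAPRIN1 to CD44, with the epithelial transcription factor gene EHF at 109.9 against 372 CPM and the hyaluronan receptor gene CD44 at 514 against 1762 CPM, and 12 genes from SF3B2 to DPP3 with a median of -1.88. BICR78 minus Cal27 gave medians of -1.88 and -1.23 in these runs. A run of 9 genes from MMP7 to CARD16 had a median of -4.25, and 8 genes from IFT27 to MFNG on chromosome 22, which include RAC2, a median of -3.99. By whole chromosome the median difference ran from -0.67 on chromosome 21, -0.64 on 9 and -0.57 on 11 to 0.54 on 4 and 0.55 on 18; on chromosome 18, 35.2% of genes were 2-fold or more higher and 6.67% lower. Copy number was not measured in these libraries, and its part in the runs was not tested.

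**Figure D5:**
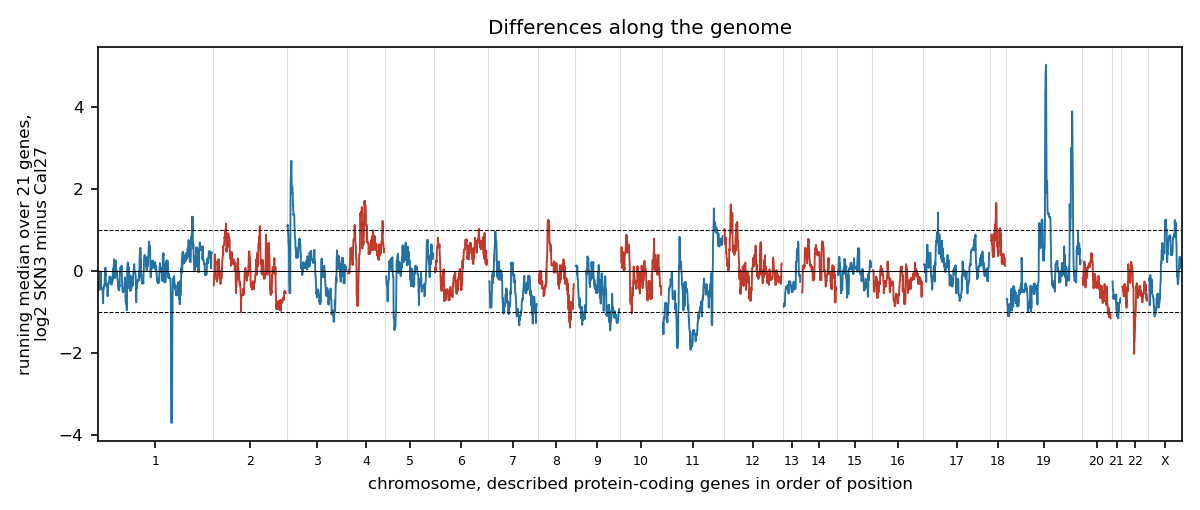
Running median of the difference in log2 CPM, SKN3 minus untreated Cal27 (vertical axis), over 21 consecutive described protein-coding genes in order of position along chromosomes 1 to 22 and X (horizontal axis; colours alternate by chromosome). Dashed lines mark 2-fold; the highest peak, 5.04, is in the zinc-finger genes of chromosome 19, and the lowest, -3.70, around the S100 and SPRR genes of chromosome 1.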

How the data were processed

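Total RNA was extracted with TRIzol and depleted of ribosomal RNA, per the labels' protocols. The authors deposited whole-number read counts per gene for 10 libraries in 1 table. The submitters' processing notes name the build hg38 and the tools HISAT2 2.1.0, Picard 2.23.1, CASAVA 1.7 and featureCounts 1.6.1. The strand setting, annotation and each tool's role were not given in the sources used here, so reads of overlapping and antisense genes cannot be told apart. Some genes are not reported here. The CUT&Tag samples of the series were not analysed here.

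From these counts, edgeR 4.0.16 (R 4.3.3) gave TMM factors over the 10 libraries and log2 CPM with a prior count of 2. CPM printed for single libraries has no prior count. Genes with at least 100 counts in SKN3 or Cal27 were described. With 1 library per line no test was run, and 2-fold is a description. Folds against 0 counts are lower bounds against 3 counts in that library. Counting intervals are exact, at 95%. The calculation was tested on simulated data. Gene symbols were matched to RefSeq (GRCh38.p14): 26967 by symbol, 479 by an older symbol and 7050 not at all. Gene length is the span in that table. Promoter sequences are RefSeq's.

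The members, the comparison and the 59 gene lists were chosen with earlier results of these data known. Genes were named by a rule: the 20 largest differences each way, the 10 largest each way above 500 CPM, genes with at most 3 counts in 1 line and 1000 or more in the other, up to 6 of each list with the largest differences, and a fixed set of 29. Named outside it, after their values were seen, were AHR, AHRR, ASNS, ATF4, CCNA2, CD44, CDK1, CDKN1A, CDKN1B, COL17A1, COL4A1, COL4A2, CYP1B1, CYP26A1, DDX60L, DNMT1, DSC2, DSC3, EHF, ENO1, EPSTI1, GBP5, IFI44L, IFIT1, IFNAR1, IFNGR1, ISG15, LDHA, LGALS7B, MCM6, MX1, PLAUR, RB1, SLC2A1, SQLE, STAR, TAP1, TAP2, TIPARP, TPX2, ZNF256, ZNF606, the cell markers PTPRC, CD3E, CDH5 and PECAM1, which were below the minimum, and the genes that end a run. Alternatives were other scalings, other prior counts and minimum counts, the Cal27 DMSO libraries in place of untreated Cal27, and a correction for gene length.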

Additional observations from a re-analysis of the deposited data

How the results depend on the processing

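No paired analysis was possible because each line has 1 untreated library. No replicate could be left out for the same reason, and without replicates the spread between cultures of SKN3 is unknown. The depth limits genes near the minimum, where counting error alone is about 20%. The minimum count moved the counts of genes most: from 2121 to 1174 higher with at least 500 counts and to 4260 without a minimum, and from 2184 to 3386 lower without a minimum. SKN3 lay above all Cal27-derived libraries in 740 genes with at least 500 counts and in 2460 without a minimum. Genes at 3 counts or fewer in 1 line went from 311 to 868 with a minimum of 20 and to 73 with 500. The 162 genes 2-fold apart between replicates became 269 with a prior count of 0.5, 72 with 5, 429 with at least 20 counts, 50 with at least 500 and 1578 without a minimum. Scaling by library size alone moved the median of all described genes by 0.16 and the share of higher genes among 2-fold differences from 49.27% to 57.75%. With Cal27 DMSO in place of untreated Cal27, 2368 genes were higher and 2295 lower, and the medians of 10 of 54 lists took the opposite sign, among them squamous markers (-0.39 to 0.57), cornified envelope genes (-0.97 to 0.74) and MHC class II genes (0.20 to -1.28). With that replacement, 19 of 353 named genes took the opposite sign, of which 9 had been 2-fold or more apart: CCND2 to -0.12, FOXF2 to 0.20, GSTP1 to 3.27, HLA-DQB1 to -0.14, HLA-DRB1 to -0.95, KRT1 to 1.06, KRT6A to 0.97, MCM4 to 1.54 and NOTCH1 to 5.39. Of named genes 2-fold or more apart, none took the opposite sign under the other scalings and prior counts, or among the 347 of 353 with a value under the length correction, which was added after seeing the data. Of those closer than 2-fold, 1 did with library size alone and 2 with the length correction. The cause of these shifts was not tested.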

Other observations

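Genes of cell death and growth signalling, not described above, also had members on both sides; over all described genes 18.6% were 2-fold or more lower and 18.1% higher. Of 14 described BCL2 family genes 4 were 2-fold or more lower and 1 higher. BAX and BAK1, the effectors that open the mitochondrial membrane, stood at 14.3 against 50.5 CPM and 19.2 against 64.7 CPM in SKN3 and Cal27, below every Cal27-derived library. BAD and BIK, which block survival members, were 3.87-fold and 5.02-fold lower. BCL2, the founding survival gene, was 5.89-fold higher at 13.2 against 2.24 CPM. The other 9 were within 2-fold, with members of both kinds on either side of 0. Of 19 ERK feedback and immediate-early genes 7 were 2-fold or more lower and 2 higher. DUSP4, a phosphatase that switches off ERK, had 2 counts against 341 (log2 ratio -10.32 to -5.40), and FOSL1, an AP-1 subunit, was at 14.3 against 114 CPM, with 113 to 286 over the Cal27-derived libraries and 16 in BICR78. Of 16 NF-kappaB genes 5 were 2-fold or more lower, each below all Cal27-derived libraries, and 1 was higher. Over all described genes 10.9% lay 2-fold or more below all Cal27-derived libraries. The subunit gene RELA was at 75.6 against 206 CPM.

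Transcription factors of the epithelial lineage were divided. Of 28 described 10 were 2-fold or more lower and 5 higher, against 18.6% and 18.1% of all described genes. KLF4, a differentiation factor of upper layers, was 13.2-fold lower (4.8 against 63.5 CPM), SOX15 13-fold (11.1 against 144 CPM) and SOX9 7.72-fold (3.53 against 27.3 CPM), and all were below every Cal27-derived library. GRHL3, a factor of barrier formation, was at 17 against 3.71 CPM, with 41.1 CPM in BICR78. Kallikrein-related proteases, which shed cornified cells, were higher for KLK7 (52.1 against 6.52 CPM) and KLK5 (318 against 102 CPM) and lower for KLK8 (11 against 45.8 CPM). Of 31 axon guidance genes 13 were 2-fold or more higher and 6 lower; NTN1, which encodes the secreted cue netrin 1, was 15.8-fold higher (193 against 12.2 CPM). Of 15 described HOX genes 3 were 2-fold or more higher and 3 lower, close to the shares over all described genes. HOXD9 was at 8.28 against 27.6 CPM, with 11.9 to 27.6 over the Cal27-derived libraries.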
